A study of Mus musculus with 4 samples.

Results

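Luzp2 (ENSMUSG00000063297) encodes leucine zipper protein 2 and was 1 of the 52636 gene rows counted in single cells of mouse glomeruli. The row was taken by its symbol, and the gene was chosen by its measured counts, which differed between young and aged podocytes in these same libraries. The aged-against-young values in podocytes are therefore given as a description, without a test. There were 2 libraries from young mice and 2 from aged mice, all untreated. Magnetic beads were perfused through the circulation, and glomeruli trapping them were collected from the kidney on a magnet before digestion to single cells. Neither the mice's strain and sex nor their exact age is given in the labels, nor how many mice made up a library. Nothing in them says that 2 libraries of an age group came from separate mice, so the spread between replicates may be technical.

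Podocytes are the epithelial cells that wrap the glomerular capillaries, and their interdigitating foot processes, joined by the slit diaphragm, form the last barrier to plasma protein. They are long-lived and scarcely divide. Parietal epithelial cells line the facing wall of Bowman's capsule and are continuous with podocytes at the vascular pole. Luzp2 has been described mainly in brain and spinal cord, and little is established about its role in the kidney.

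In the GENCODE vM21 annotation of GRCm38 the gene lies on the plus strand of chromosome 7 from 54835498 to 55268885, a span of 433 kb. The protein-coding transcript has 12 exons, and its last exon, where a 3' count is expected to fall, is 3624 bases long. A second transcript with 10 exons is annotated as retaining an intron. RefSeq places the start further upstream, at 54835245 of GRCm38.p6. The 100 bases before that start are shown because they hold every match found to the 7 short motifs searched. They are chr7:54835145-54835244, plus strand, read 5′ to 3′, with motif matches in capitals.

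Luzp2 upstream: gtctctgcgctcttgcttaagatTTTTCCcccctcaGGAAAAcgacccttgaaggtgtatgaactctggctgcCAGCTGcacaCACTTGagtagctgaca

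The search covered both strands of the window from 250 bases before to 50 bases after the RefSeq start. The E-box letters CANNTG, the core bound by basic helix-loop-helix factors, matched at -27 and -17, and 72.3% of the 32851 promoter windows in the RefSeq table hold at least 1 match. The NFAT core GGAAAA matched on the minus strand at -77 and on the plus strand at -64, and 23.4% of windows hold it. These letters were not present in the Luzp2 window: TATAAA (13.6% of windows), the AP-1 site TGANTCA (7.81%), the cyclic AMP response element TGACGTCA (1.79%), GNGGGGGNG, which EGR factors and WT1 can bind (18.8%), and the glucocorticoid receptor element AGAACA (19.0%). The window was 41.3% G and C with 5 CpG pairs, against medians of 52.7% and 7 over all windows. None of the matches overlapped another, and binding was not measured here.

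The 4 libraries held 33323 barcodes with 124600182 unique molecular identifiers (UMIs, each counting 1 captured RNA molecule), from 18457791 to 42046542 per library. After filtering, 28000 cells remained, of which 3975 were podocyte-like. Young replicate 2 stood apart before any result was taken: 60.4% of its kept cells fell in clusters that mixed markers of unrelated cell types, against 0.784% to 2.70% in the other libraries, and its median was 1258 UMIs per kept cell against 2714 to 3734. Results are therefore also given without it. Pairs of libraries shared 9 to 31 barcodes, and none of these was podocyte-like in both. The podocyte label was checked on its markers. Nphs1 (nephrin, of the slit diaphragm) was found in 96.9% to 99.1% of podocyte-like cells, depending on the library. Wt1, a podocyte transcription factor, was found in 87.7% to 95.7%, and all 12 podocyte markers were detected in every library.

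Luzp2 was almost silent in young podocyte-like cells and readily counted in aged ones. The young libraries held 40 Luzp2 UMIs in 1767 podocyte-like cells and 30 in 572, and the aged libraries held 506 in 983 and 424 in 653. Scaled to counts per 1000000 UMIs of the same cells (CPM), the level was 5.15 (exact Poisson 95% interval 3.68 to 7.02) and 9.39 (6.34 to 13.4) in young replicates 1 and 2. It was 90.3 (82.6 to 98.5) and 86.2 (78.2 to 94.8) in aged replicates 1 and 2. Both aged libraries lay far above both young ones, and the intervals within each age group overlapped. These intervals, like all those below, cover counting error only.

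After TMM scaling the mean was 7.11 ± 2.73 CPM in young and 90.2 ± 0.850 CPM in aged libraries (SD, n = 2 each). The log2 fold change was 3.79 (SE 0.20), which is 13.9-fold. It was 4.11 without young replicate 2 and 3.32 without young replicate 1. The pooled count ratio was 13.8 (95% interval 10.8 to 17.9). Among the 10868 podocyte genes that passed the count filter, Luzp2 stood 8356th by young level and 1976th by aged level. By fold it was the 10th, and of the 7540 genes with an aged mean of at least 10 CPM it had the highest fold. Its young mean was under that cut, so Luzp2 passed it only by its aged level. As the gene was chosen by this difference, its ranks by fold follow from the choice and lend it no support.

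**Figure D1:**
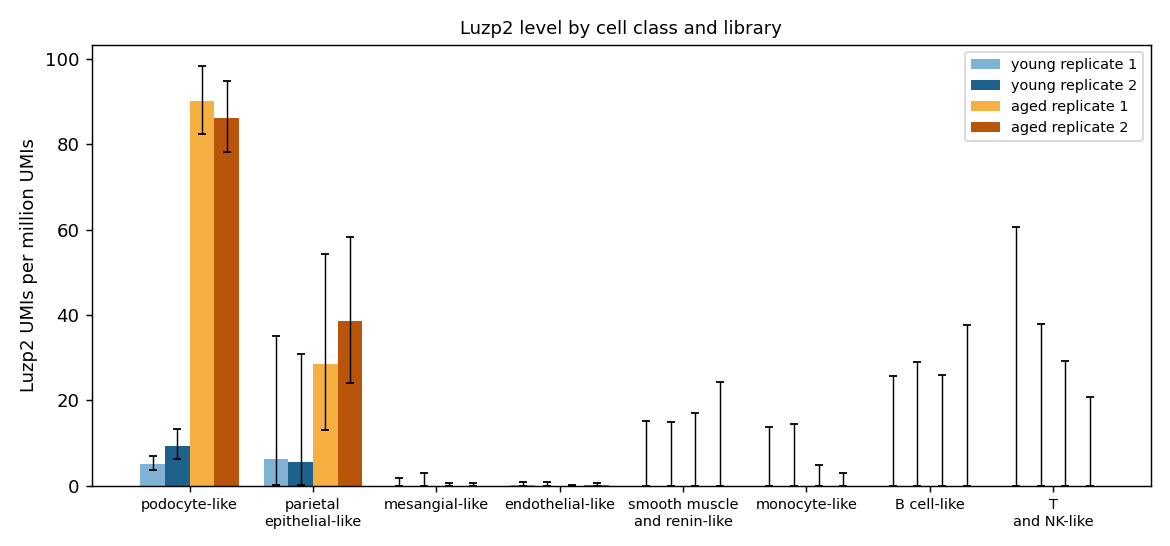
Luzp2 level in CPM (vertical axis) in 8 cell classes with at least 20 cells in every library, 1 bar per library, with exact Poisson 95% intervals. Podocyte-like bars stand at 90.3 and 86.2 in the aged and 5.15 and 9.39 in the young libraries, the aged parietal epithelial-like bars are lower than the aged podocyte-like ones, the young bars of these classes are alike within their intervals, and the other classes are at or near 0 with wide intervals where few UMIs were sequenced.

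The share of podocyte-like cells with at least 1 Luzp2 UMI was 2.04% and 4.37% in young against 31.5% and 37.5% in aged libraries. Because median depth differed (4191 and 5819 UMIs per podocyte-like cell in young and 5827 and 7673 in aged libraries), each cell was thinned at random to 2000 UMIs and 115, 74, 72 and 20 shallower cells were left out. At that depth 17 of 1652 cells (1.03%, exact Clopper-Pearson 95% interval 0.601% to 1.64%) and 8 of 498 (1.61%, 0.696% to 3.14%) were positive in young replicates 1 and 2. In aged replicates 1 and 2 it was 128 of 911 (14.1%, 11.9% to 16.5%) and 99 of 633 (15.6%, 12.9% to 18.7%). The age difference was thus present at equal depth, with group means of 1.32% ± 0.408 and 14.8% ± 1.12 (SD, n = 2 each) and a difference of 13.5 percentage points. In endothelial-like cells, a class at or near 0 for Luzp2, 1 of 1677, 0 of 969, 0 of 3997 and 2 of 3860 thinned cells were positive (young replicates 1 and 2, aged replicates 1 and 2), at median depths of 2312 to 3231 UMIs before thinning.

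**Figure D2:**
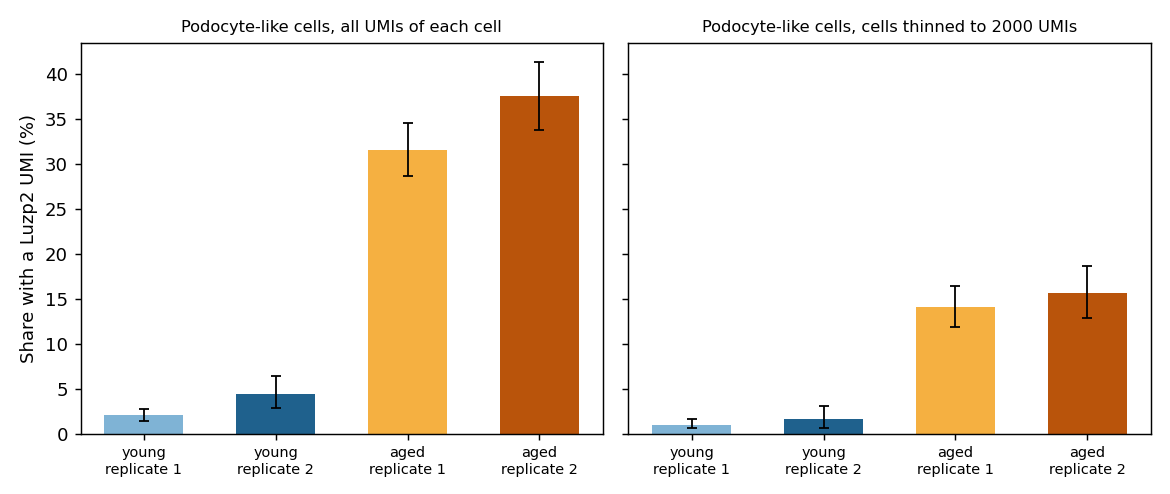
Share of podocyte-like cells with a Luzp2 UMI (%, vertical axis) in each library, with all UMIs (left) and with every cell thinned to 2000 UMIs (right), with exact Clopper-Pearson 95% intervals. At equal depth the young libraries sit at 1.03% and 1.61% and the aged ones at 14.1% and 15.6%.

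With all UMIs, 310 of 983 and 245 of 653 podocyte-like cells of aged replicates 1 and 2 held Luzp2. Its UMIs were thus not confined to a few cells. The highest count in 1 cell was 3 and 2 in young against 7 and 12 in aged libraries. At 2000 UMIs per cell the variance of the count was 1.30 and 1.10 times its mean in aged replicates 1 and 2, where counting from a single common level gives a ratio near 1. That common level would give 15.9% and 16.5% positive cells, against the 14.1% and 15.6% seen. It would give 12.2 and 9.11 cells with 2 or more Luzp2 UMIs, and 23 and 14 were seen. In this random thinning the values were thus somewhat above what counting alone gives, most of all in aged replicate 1. No interval was set on this excess, and it was not tested. Another random thinning to the same depth gave 14.4% and 12.2% positive cells in aged replicates 1 and 2. With all UMIs, where depth also differed between cells, the ratio was 1.76 and 1.98. The thinned means were only 0.173 and 0.180 UMIs per cell. At such means a common level and expression in only a part of the cells cannot be told apart.

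Podocyte-like cells fell in 2 clusters, which were made without Luzp2. Cluster 2 was led by Gas1, Tdrd5 and Arhgap28. Cluster 7 was led by Clic3, Rab3b and Nphs1 and was shallower. In cluster 2 the Luzp2 level was 5.87 and 8.27 CPM in young against 90.2 and 85.3 CPM in aged libraries. In cluster 7 it was 3.78 and 13.8 CPM in young against 90.6 and 91.9 CPM in aged libraries. The aged libraries lay above the young ones in both clusters, and within each library the intervals of the clusters overlapped. By depth, aged cells with 2500 to under 5000 UMIs held 69.0 and 72.1 CPM and those with 5000 to under 10000 held 93.2 and 79.8 CPM. Young cells of the same depths held 6.93 and 9.42 CPM, then 2.52 and 11.1 CPM. No depth range brought a young library near an aged one.

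**Figure D3:**
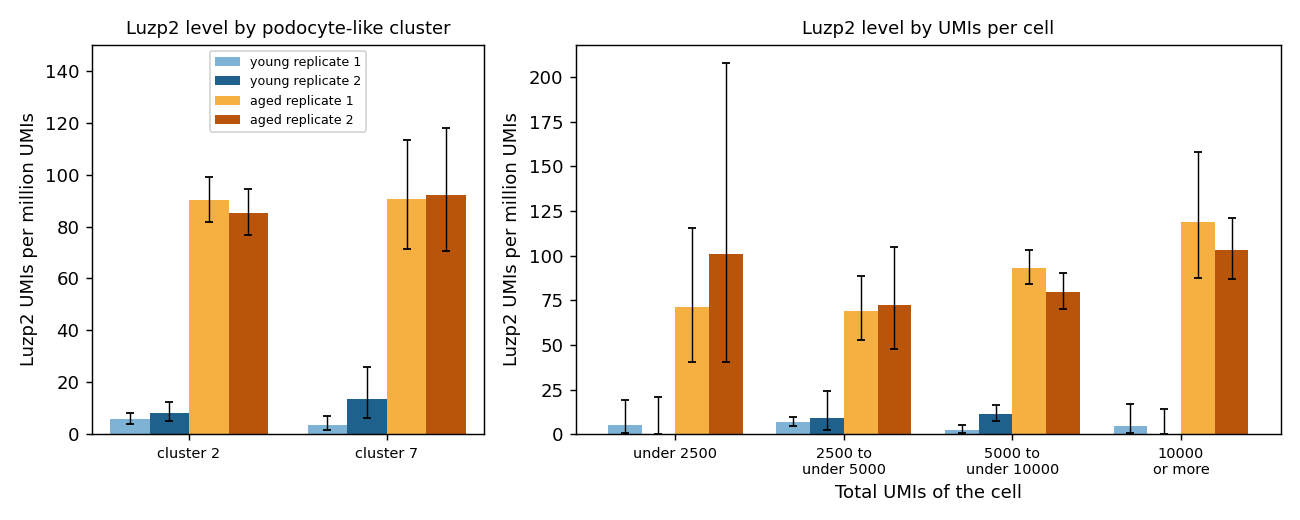
Luzp2 level in CPM (vertical axes) in podocyte-like cells by cluster (left) and by the total UMIs of the cell (right), 1 bar per library, with exact Poisson 95% intervals. In every cluster and depth range both aged bars are above both young bars; the outermost depth ranges hold few cells in some libraries and have wide intervals.

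RNA from other cell types was measured in the same podocyte-like cells. The summed level of the 10 endothelial markers was 44.6 and 102 CPM in young against 87.4 and 61.8 CPM in aged libraries. The 10 mesangial markers summed to 33.0 and 32.2 against 23.2 and 19.7 CPM, the 9 parietal epithelial markers to 26.0 and 30.7 against 20.3 and 17.1 CPM, and the 9 macrophage markers to 8.12 and 27.5 against 15.5 and 21.5 CPM. Lad1 and Pax2, which mark parietal epithelium, were at 0 in podocyte-like cells of every library, and C1qa, C1qb and C1qc of macrophages were at 0 in the young libraries only. Adgre1, also of macrophages, was at 0 in all libraries but aged replicate 1. The 8 smooth muscle and renin markers summed to far more, 647 and 766 against 590 and 646 CPM, of which Mylk (myosin light chain kinase) made up 627 and 746 against 538 and 596 CPM. Its other markers summed to 20.2 and 19.7 against 51.7 and 50.2 CPM, higher in both aged libraries. The mesangial and parietal epithelial sums were lower in both aged libraries, and the endothelial and macrophage sums overlapped between ages. Mesangial-like, smooth muscle and renin-like and macrophage-like cells themselves held 0 Luzp2 UMIs.

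Outside the epithelium Luzp2 was hardly detected. Of the 1110 Luzp2 UMIs in kept cells, 90.1% lay in podocyte-like cells. Part of the rest lay in cells left out of the named classes. Cells of mixed clusters held 1 and 13 Luzp2 UMIs in young and 4 and 12 in aged libraries. Mesangial-like, smooth muscle and renin-like, macrophage-like, monocyte-like, dendritic-like, neutrophil-like, B cell-like and T and NK-like cells, 4487 cells with 28220125 UMIs in all, held 0. Over these 8 classes pooled, a count of 0 allows a share of up to 0.0669% of cells with a UMI, or a level of 0.106 CPM. By class and age the limit was looser, from 0.273 CPM in aged mesangial-like to 503 CPM in young neutrophil-like cells. It was 53.6 CPM in young macrophage-like and 11.1 CPM in young B cell-like cells, above the young podocyte-like levels. Endothelial-like cells held 4 UMIs in 14096 cells (1 and 0 in young against 0 and 3 in aged libraries). Proximal tubule-like cells held 2 UMIs in 15 cells, both in 1 cell, and loop of Henle and distal tubule-like cells 1 UMI in 97. Luzp2 was not tested for age in endothelial-like or mesangial-like cells because it did not pass the count filter of either fit.

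Parietal epithelial-like cells were the second class with Luzp2. They held 1 UMI in 34 cells and 1 in 51 in the young libraries, and 9 in 54 and 22 in 63 in the aged libraries. The levels were 6.28 (0.159 to 35.0) and 5.53 CPM (0.140 to 30.8) in young replicates 1 and 2, and 28.6 (13.1 to 54.3) and 38.6 CPM (24.2 to 58.4) in aged replicates 1 and 2. The aged libraries were higher in both cases, but the young intervals reached into the aged ones. The pooled ratio was 5.96 (95% counting interval 1.52 to 51.4), with 2 young UMIs behind it. In order of level, aged podocyte-like cells came first, then aged parietal epithelial-like cells, whose intervals lay below those of podocyte-like cells in both aged libraries. Young podocyte-like and young parietal epithelial-like cells followed, and they did not differ beyond their intervals. The second place of this class depended on how cells were kept and named. Without doublet removal its aged cells held 3 and 1 Luzp2 UMIs (11.1 CPM, 2.29 to 32.4, and 2.90 CPM, 0.0735 to 16.2), and with at most 10% mitochondrial UMIs also 3 and 1, levels whose intervals overlap those of young podocyte-like cells.

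The gene did not pass the count filter of edgeR in this class. With the filter off, its log2 fold change was 2.69, and it was higher in 2 of 2 aged libraries. When a young library was left out it passed the filter, with log2 fold changes of 2.66 without young replicate 1 and 2.42 without young replicate 2. Luzp2 was chosen by its counts in these same libraries, so these values are a description without a test. The age difference in parietal epithelial-like cells rested on few UMIs and is not given as a call.

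All 33 Luzp2 UMIs of this class came from 1 of its 2 clusters. Cluster 26, led by Msmp, Spp1 and Pcp4, held 0 in 39 young and 69 aged cells, which allows up to 25.3 and 6.32 CPM. Cluster 27, led by Igfbp2, Igfbp6 and Pcp4 with the parietal marker Dkk3 and the smooth muscle marker Tagln among its top 10 genes, held 1 UMI in each young library (10.8 and 7.76 CPM). In the aged libraries it held 9 in 13 cells and 22 in 35 cells (100 CPM, 45.8 to 190, and 68.7 CPM, 43.0 to 104). Podocyte markers in it stood at 0.211 of the level of its parietal markers, where 0.25 would have left it out as mixed. Its aged Luzp2 levels were 111% and 79.7% of those of podocyte-like cells in the same library.

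The podocyte markers did not reach such a share in cluster 27. Their summed level there was 6.71% and 7.08% of that of podocyte-like cells in the aged libraries. In the whole class, podocyte RNA carried over in the proportions of podocyte-like cells would bring 0.990 and 2.46 Luzp2 UMIs to the aged libraries by the 12 markers, where 9 and 22 were counted. The median share of podocyte marker UMIs was 0.335% in the 13 Luzp2-positive aged cells of the cluster and 0.118% in the 35 negative ones, against 2.70% in aged podocyte-like cells. The part of doublets in these counts was not tested.

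**Figure D4:**
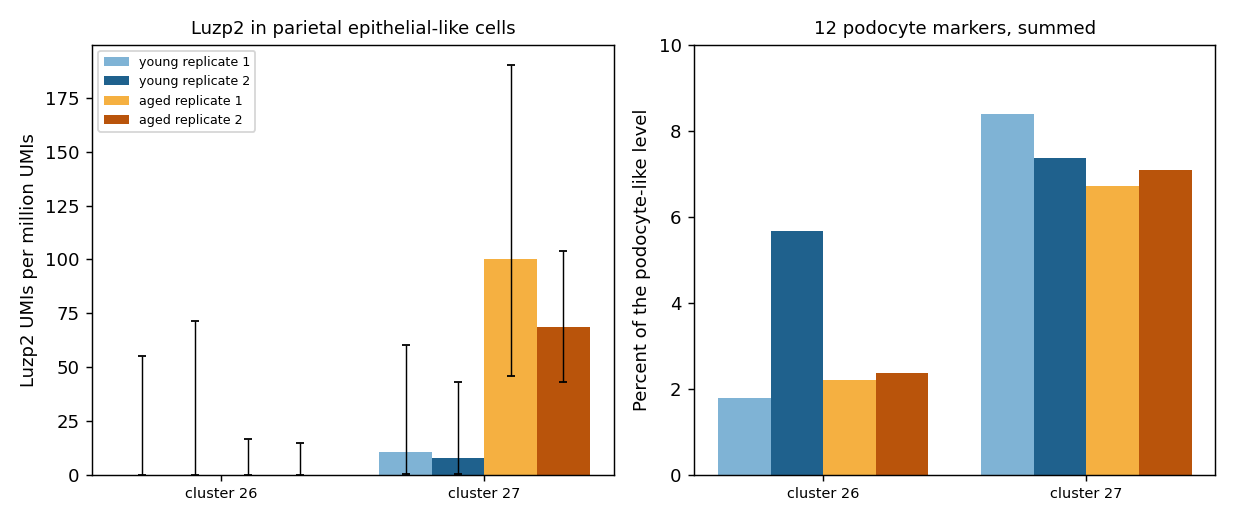
Left, Luzp2 level in CPM in the 2 parietal epithelial-like clusters, 1 bar per library, with exact Poisson 95% intervals. Right, the summed level of 12 podocyte markers in the same cells as a percentage of that in podocyte-like cells of the library: cluster 27 has aged Luzp2 bars of 100 and 68.7 with podocyte markers at 6.71% and 7.08%, and cluster 26 has no Luzp2 UMI.

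Genes on either side of Luzp2 were compared to see whether the stretch of chromosome 7 around it differed too. Over all podocyte genes, 669 of 10868 (6.16%) were called by edgeR's quasi-likelihood test at an adjusted p under 0.05, 444 higher (4.09%) and 225 lower (2.07%) in aged libraries. Without young replicate 2 the test called 1279 (11.3%), and without young replicate 1 it called 1213 (10.9%). It called 337 without aged replicate 1 and 307 without aged replicate 2. Of the 10 nearest protein-coding genes, 6 passed the count filter and 0 were called. At an unadjusted p under 0.05 there was 1, Tubgcp5, where 1873 of all 10868 podocyte genes stood under that p. DESeq2 also called 0 of the 6, and 2.49% of all genes.

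The nearest gene on the 3′ side, Siglech, begins 499 kb away and had 0 UMIs in podocyte-like cells. Tubgcp5, a part of the gamma-tubulin ring complex, had 12.6 and 13.5 CPM in young against 8.20 and 8.94 CPM in aged libraries (log2 fold change -0.55, SE 0.23, adjusted p 0.193). Cyfip1, of the actin-regulating WAVE complex, had 109, 120, 113 and 115 CPM in young replicates 1 and 2 and aged replicates 1 and 2 (log2 fold change 0.05, adjusted p 0.894). The magnesium transporters Nipa2 and Nipa1 had log2 fold changes of 0.26 (adjusted p 0.381) and 0.32 (adjusted p 0.456). Nipa2 passed without young replicate 2 (0.42, adjusted p 0.0116). On the 5′ side the nearest protein-coding genes lie 2820 kb and more away, and Svip, an inhibitor of endoplasmic reticulum-associated degradation, stood at a log2 value of 0.05 (adjusted p 0.904). Fancf, of the Fanconi anaemia complex, had one of 0.30 (adjusted p 0.808). Gas2 was too low to test, and Slc17a6 and a predicted gene had 0 UMIs. The 7 genes annotated within the Luzp2 span are predicted genes, a pseudogene and a small RNA, and none passed the filter.

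The rest of the podocyte programme was read from 4 gene lists, by counts beside the 6.16% called over all genes. Of 30 podocyte identity genes, 27 were tested and 0 were called by edgeR. At an unadjusted edgeR p under 0.05 there were 6, of which 1 was higher and 5 were lower. Over all 10868 genes 1873 stood under that p. DESeq2 called 1 identity gene, and 2.49% of all genes. The median log2 fold change of the identity genes was -0.01, and that of all genes was 0.00420. The log2 fold change was -0.44 for Thsd7a, a podocyte membrane protein (adjusted p 0.0939), and -0.38 for Cd2ap, a slit diaphragm adaptor (adjusted p 0.106). With a single young library left in, 6 (without young replicate 1) and 7 (without young replicate 2) identity genes were called. At the 6.16% called over all genes a list of 27 would hold few calls. The 0 calls therefore do not show that the identity genes were unchanged, and the count varied with the libraries used.

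Since Luzp2 is known from the nervous system, genes of neurons and synapses were read as well. Of 60 such genes 19 passed the count filter, 0 were called higher and 2 lower, with a median of -0.01. Kcna6, a voltage-gated potassium channel, fell from 76.7 and 43.7 CPM in the young to 18.1 and 22.8 CPM in the aged libraries (log2 fold change -1.61, SE 0.20, adjusted p 2.20e-06). Ncam1, neural cell adhesion molecule 1, fell from 59.3 and 81.4 to 39.3 and 41.8 CPM (-0.77, SE 0.16, adjusted p 0.00177). Without aged replicate 1 Ncam1 was not called (adjusted p 0.0752). Of 16 genes named for a leucine zipper, 11 were tested, and 1 was called higher and 0 lower with a median of -0.03. That gene was Tsc22d3, the glucocorticoid-induced leucine zipper, which rose from 102 and 71.1 to 201 and 142 CPM (0.96, SE 0.16, adjusted p 2.06e-04). It was not called by DESeq2 (adjusted p 0.166) or without aged replicate 1 (0.69, adjusted p 0.0629).

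Early response genes, which cells can switch on during tissue dissociation, were the last list. All 19 were tested, and 5 were called higher and 1 lower, 31.6% of the list, with a median of 0.18. Dnajb1, a heat shock co-chaperone, rose from 225 and 215 to 498 and 662 CPM (log2 fold change 1.40, SE 0.14, adjusted p 1.10e-07). Atf3, a stress-induced transcription factor, rose from 2307 and 2384 to 3849 and 4121 CPM (0.76, SE 0.15, adjusted p 0.00140). Hspa1b and Hspa1a, near-identical heat shock genes whose reads cannot be told apart with certainty, rose by 1.05 and 1.06 on the log2 scale (adjusted p 0.00151 and 0.00166). The Hspa1b and Hspa1a calls rested on aged replicate 2, without which they had values of 0.43 and 0.42 (adjusted p 0.557 and 0.585). They were also not called by DESeq2 (adjusted p 0.601 and 0.535) or with cells named one by one (adjusted p 0.256 and 0.219). Dusp1, an early response phosphatase, fell from 1035 and 1184 to 596 and 667 CPM (-0.81, adjusted p 2.71e-04). The Dusp1 call was lost without aged replicate 1 (adjusted p 0.102) and the Atf3 call without aged replicate 2 (adjusted p 0.0673). Without young replicate 2, 10 of the 19 were called, and without aged replicate 2 there were 2. With mixed podocyte clusters kept as podocytes, 0 of the 19 were called, and 9 genes of all those tested. These genes moved in the same comparison as Luzp2, and their part in its values was not tested.

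Among the genes with the highest podocyte folds, the 3 given here were scarce, with aged means of 4.01 to 5.92 CPM. Epha6, an ephrin receptor, had 0 and 0 UMIs in young against 33 and 28 in aged libraries, at least 21.2-fold higher when the 2 young libraries together are set at 3 counts. Gdnf, a neurotrophic factor that also guides kidney development, had 0 and 0 against 27 and 15 (at least 14.6-fold). Astn1, a neuronal adhesion protein, had 1 and 0 against 27 and 20, a count ratio of 48.9 (8.36 to 1973). Luzp2 had 506 and 424 aged UMIs and was the most abundant of these 4 genes. As these genes were ranked by the podocyte contrast, their values are given without a test.

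Genes with a profile like that of Luzp2 were sought over 16 sums, 4 glomerular classes in each of 4 libraries, by Pearson's r of log2(CPM + 1) among 7566 genes with a mean podocyte level of at least 10 CPM. The median r was 0.217. The 10 highest were Spsb2, Erbb4, Cfl2, Dusp14, Vim, Arfgef3, Dusp10, Acpp, Tdrkh and Ctsh, with r from 0.945 down to 0.914. The 16 points share libraries and classes, so no p is given. All 10 were higher in the podocyte-like and parietal epithelial-like than in the mesangial-like and endothelial-like sums. With a pseudocount of 5, 7 of the 10 stayed in the top 10.

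Erbb4, a neuregulin receptor tyrosine kinase, came nearest to Luzp2 in range. Its podocyte level was 6.96 and 10.3 CPM in young against 37.5 and 33.3 CPM in aged libraries, its parietal epithelial-like level was 6.28, 27.7, 19.1 and 17.5 CPM in the same order of libraries, and endothelial-like cells of all 4 libraries were at 0. Dusp14, a dual-specificity phosphatase, had 18.8 and 14.1 CPM in young and 59.9 and 43.3 CPM in aged podocyte-like cells. Vim, the intermediate filament vimentin, was far more abundant, with 2594 and 2569 against 3569 and 3452 CPM. Cfl2, an actin-severing cofilin, had 159 and 161 against 220 and 221 CPM. Tdrkh, a tudor domain protein of the piRNA pathway, had 25.2 and 21.9 against 27.5 and 26.8 CPM. None of the 10 matched the Luzp2 span between young and aged podocyte-like cells.

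**Figure D5:**
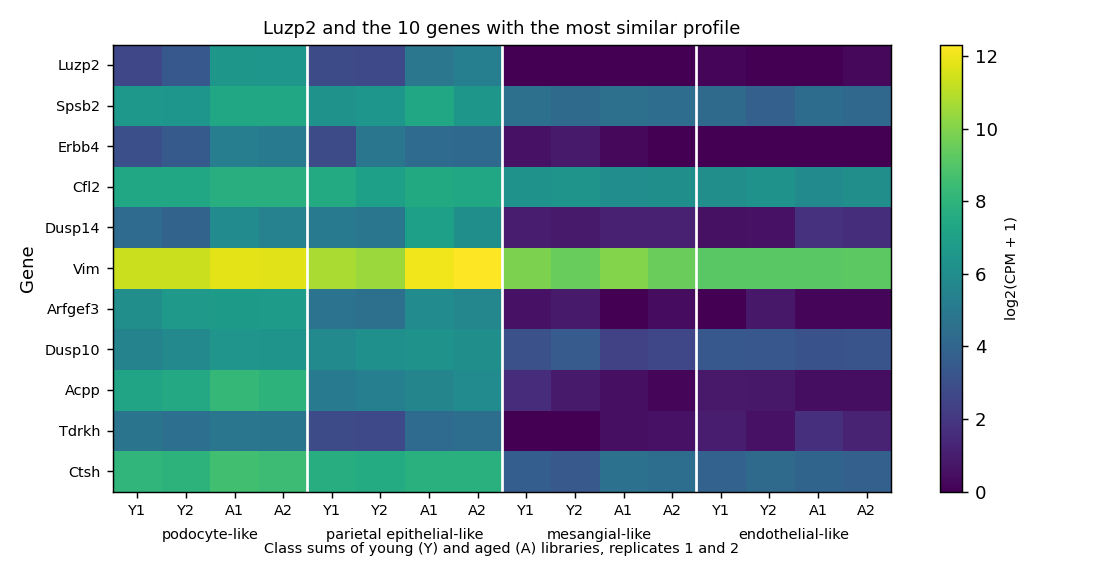
Level of Luzp2 and of the 10 genes with the highest Pearson's r (rows), as log2(CPM + 1) by colour, in the sums of 4 cell classes in each library (columns). All rows are brighter in the podocyte-like and parietal epithelial-like columns than in the mesangial-like and endothelial-like ones, and the Luzp2 row has the widest step between young and aged podocyte-like columns.

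Within the aged libraries, Luzp2-positive podocyte-like cells were set against Luzp2-negative ones at 2000 UMIs per cell, 128 against 783 cells in aged replicate 1 and 99 against 534 in aged replicate 2. The cells of 1 library are not replicates, so each library is given on its own with counting intervals. Positive and negative cells had similar median depth before thinning (6100 and 5981 UMIs, then 7658 and 7808), and cluster 7 gave 25.0% and 26.3% of the positive and 20.6% and 22.5% of the negative cells. The log2 ratio of positive to negative cells was 0.09 and 0.08 for the podocyte marker Nphs1, 0.04 and 0.03 for Wt1 and -0.02 and 0.16 for Synpo (synaptopodin, of the podocyte actin cytoskeleton), with intervals that all include 0. Podxl (podocalyxin, the charged coat protein of podocytes) was higher in positive cells of aged replicate 1 (0.25, 0.15 to 0.34) but not beyond counting error in aged replicate 2 (0.01, -0.11 to 0.12).

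The genes that differed most between positive and negative cells changed from 1 random thinning to another. Over 3707 genes with at least 50 thinned UMIs in each library, the ratios of the 2 aged libraries had a Pearson's r of 0.0637 across genes, and 0 genes passed 2-fold higher in both. Mzt2, Creld2 and Tcf4 passed 2-fold lower in both (log2 ratios -2.08 and -1.17, -1.36 and -1.11, -1.01 and -1.13), and with another random thinning Gna12 and Zmym5 passed in their place. The 8 genes highest by the lower of their 2 ratios were Gpc3, Sox5, Stk38, P3h1, Trak2, Herpud2, Tagln and Ehd1. Gpc3, a cell-surface proteoglycan, led with log2 ratios of 1.23 (0.53 to 1.86) and 0.94 (-0.04 to 1.79). The 4 lowest were Mzt2, Creld2, Tcf4 and Rcan1, and Rcan1, a calcineurin regulator, had -0.94 (-1.46 to -0.48) and -1.19 (-1.94 to -0.58). Another random thinning gave 0.20 and -0.29 for Rcan1, and 0 of the 8 highest genes were among its own 8 highest. Erbb4 had ratios of 0.48 (-0.66 to 1.39) and 0.75 (-0.56 to 1.81), so at this depth a difference in Erbb4 between Luzp2-positive and Luzp2-negative cells was not detectable.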

How the data were processed

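The deposited matrices held raw UMI counts per gene and barcode, with no normalization, per the file headers and the values. Reads had been processed with Cell Ranger against GRCm38: the labels' protocols give version 3.1.0, and the file headers and the submitters' processing notes give 6.0.1. The lowest barcode total was 500 to 516 UMIs per library. The symbols come from the files, and 52489 of 52636 gene IDs were found in GENCODE vM21.

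Luzp2, the gene lists and the markers were chosen with earlier results of these data known. Cells with at least 500 genes and at most 20% mitochondrial UMIs were kept. Doublets were scored with Scrublet in scanpy 1.11.5. Its automatic threshold marked 125 cells (0.418%), so the highest scores were removed at 0.8% per 1000 barcodes (1876 cells, 6.28%). Cells were clustered on 2000 variable genes without Luzp2 (30 components, 15 neighbours, leidenalg 0.10.2, resolution 1), and epithelial clusters were clustered again at resolution 0.3. Clusters took the class with the highest median marker level. Clusters with an unrelated class at 0.25 or more of that level, and single cells of that kind, were left out as mixed. These thresholds were set after the data were seen, and names are rebuilt ones. The word "-like" marks that.

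UMIs were summed per class and library, so cells were not replicates, and fitted with edgeR 4.0.16 in R 4.3.3 (quasi-likelihood test, TMM, default filter on low counts, age as the only term, Benjamini-Hochberg over all genes of the class, calls at an adjusted p under 0.05). The fit was tested on simulated data. SEs were obtained from the F statistic and the fold change. CPM in the gene list results and the group means is after TMM scaling. CPM of single classes, clusters, neighbours and profile-like genes is UMIs per 1000000 UMIs. Ratios of positive to negative cells use 0.5 added UMIs. Named genes followed a rule: genes beside Luzp2, the 5 highest podocyte folds, the 10 most like profiles, the 8 highest and 4 lowest ratios of positive to negative cells, and in each list the 4 called genes with the smallest p per direction or, where 0 were called, the 3 smallest. Predicted genes were not named, and some genes that the rule picked are not reported here. Alternatives were RLE scaling, DESeq2 1.42.0, no count filter, each library left out, a replicate block, other doublet, mixed-cell, mitochondrial and clustering settings, naming cells one by one, and other thinning.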

Additional observations from a re-analysis of the deposited data

How the results depend on the processing

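The podocyte log2 fold change of Luzp2 kept its direction in all 15 alternatives (3.32 to 4.11). All moves were under the SD of log2 CPM of the young libraries, the larger of the group SDs. The largest moves came from leaving out a young library, and that SD cannot judge them because the same libraries set it. The aged minus young share of positive podocyte-like cells, 13.5 percentage points at 2000 UMIs, was 7.78 at 1000 UMIs, 31.3 without thinning and 11.8 with another random seed, and it was 12.7 to 14.3 with 1 library left out. In parietal epithelial-like cells the log2 count ratio of 2.57 became 2.26 with mixed cells kept and 1.64 with cells named one by one, and was 2.28 to 2.71 with 1 library left out. Without doublet removal, and with at most 10% mitochondrial UMIs, cells like those of cluster 27 were not named parietal epithelial: the class held 4 Luzp2 UMIs in 81 and 77 aged cells and 0 in 36 and 38 young cells, so no ratio is given. RLE scaling, DESeq2 and the replicate block gave it no value there because it did not pass the filter, and mixed podocyte clusters do not touch that class.

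The 669 podocyte calls became 271 with DESeq2, 204 with cells named one by one and 9 with mixed podocyte clusters kept as podocytes (an alternative chosen after seeing the data), and 307 to 1279 with 1 library left out. The labels do not say whether replicate numbers pair young and aged libraries, so the numbers were treated as names. Same-numbered libraries deviated together with r = 0.0227 over 10868 podocyte genes. With 2 libraries per group this value cannot show whether they were paired. With the replicate number as a block Luzp2 had a log2 fold change of 3.78 and 898 genes were called. The called neighbours of Luzp2 numbered 0 to 1 with 1 library left out. The 9 calls in the 4 lists together became 4 with cells named one by one and 0 with mixed podocyte clusters kept, and 5 to 22 with 1 library left out. By list, podocyte identity genes called numbered 1 with RLE scaling, 1 with DESeq2, 3 without the count filter, 1 with at most 10% mitochondrial UMIs and 0 to 7 with 1 library left out. Genes of neurons and synapses numbered 1 with cells named one by one, 0 with mixed podocyte clusters kept and 1 to 3 with 1 library left out. Leucine zipper genes numbered 0 with DESeq2, with cells named one by one and with mixed podocyte clusters kept, and 0 to 2 with 1 library left out. Early response genes numbered 3 with cells named one by one, 0 with mixed podocyte clusters kept and 2 to 10 with 1 library left out. Of the 10 genes most like Luzp2, 0 were among the 10 highest podocyte folds above 10 CPM. Of the 8 genes highest in Luzp2-positive cells, 0 were shared at 1000 UMIs and 0 with another seed. Fancf changed sign without aged replicate 1 (-0.10 to 0.59 with 1 library left out). Over 435 fits of 29 named genes, 384 kept direction and side of the threshold, 41 lost a call and 9 gained one. Of the 19 named genes called in the main fit, 18 lost the call in at least 1 alternative. Each of these lost it with mixed podocyte clusters kept, and Erbb4 alone kept its call throughout. The causes were not tested.

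With 2 libraries per group, depth limits what can be said of scarce genes: 70 young podocyte Luzp2 UMIs and 2 young parietal epithelial ones stand behind the young levels.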
